A study of Homo sapiens with 17 samples.

Results

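GFI1 and GFI1B, the members of the GFI1 family of zinc finger repressors, were followed together with 4 genes of the corepressor they recruit, KDM1A, RCOR1, HDAC1 and HDAC2, in human endothelial cells turning into blood cells in culture. The 6 genes were chosen by symbol and matched to their Ensembl identifiers, 6 of 58302 identifiers in the count tables and 6 of 28285 in the tables of sorted cells. All 6 passed the filters on low values. The cells were derived from H1, an established line of human embryonic stem cells, and carried a GATA2/eGFP reporter. The reporter marks cells that express GATA2, a factor needed by blood stem cells and by the endothelium they arise from, and all libraries started from reporter-positive endothelial cells. Sorted cells derived with vitamin C (2 libraries) and without it (2 libraries) were sequenced directly. Vitamin C is a cofactor of oxygenases that act on methylated histones and DNA, and the question put by the design is whether deriving the endothelium with it changes the passage to blood. Sorted cells derived with and without vitamin C were also re-plated and sequenced at 0, 24, 36, 48 and 60 h, with 1 library for each condition and time. From the cultures with vitamin C came 1 library of suspended cells at each of 60 and 96 h, and 1 of cells still adherent at 60 h. The labels describe the re-plated libraries after 0 h, and the adherent one, as mixtures of endothelial and blood cells, and the suspended libraries as blood cells. The cells represent 1 stem cell line, and its clonal origin and the dose of vitamin C are not given in the sources used here.

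The 13 count tables held 6214675 to 11058345 reads, so that 1 read was worth 0.0904 to 0.161 CPM (read counts scaled to a common library total). Mitochondrial genes took 4.15 to 9.66% of the reads, with the top of that range in the suspended cells at 96 h. For the 4 sorted libraries no depth can be given, because their tables hold only TPM, which are scaled per gene length and library. Of 16 endothelial marker genes, 15 were listed in the sorted cells and none was at 0, with a summed level of 6076 to 7276 TPM with vitamin C and 6008 to 6227 TPM without. Libraries of the re-plated cultures are single, so p-values over them reflect departures from the fitted times and conditions, not the spread between cultures.

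GFI1 and GFI1B bind DNA through zinc fingers that read an AATC core, and repress through a short SNAG domain at their start. The SNAG domain holds LSD1, the histone demethylase encoded by KDM1A, which removes methyl groups from lysine 4 of histone H3. RCOR1 (CoREST) joins LSD1 to the deacetylases HDAC1 and HDAC2, which also serve the NuRD and SIN3 complexes. In mouse embryos, RUNX1 switches on Gfi1 and Gfi1b in the endothelium that forms blood, and both factors with LSD1 shut down endothelial genes there. GFI1B is later needed in red cells and megakaryocytes, and GFI1 in neutrophils and lymphoid cells.

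On GRCh38, GFI1 (ENSG00000162676) lies on chromosome 1 at 92474762 to 92486876 on the minus strand and GFI1B (ENSG00000165702) on chromosome 9 at 132944000 to 132991687 on the plus strand. KDM1A (ENSG00000004487, chromosome 1, 23019443 to 23083689), RCOR1 (ENSG00000089902, chromosome 14, 102592661 to 102730576) and HDAC1 (ENSG00000116478, chromosome 1, 32292086 to 32333635) lie on plus strands. HDAC2 (ENSG00000196591, chromosome 6, 113933028 to 114011308) lies on the minus strand. Exons of GFI1B share 349 bases with exons of TSC1 on the opposite strand. Whether counting used strand is not given in the sources used here, so reads from that stretch cannot be assigned, and TSC1 itself stayed between 72.8 and 99.1 CPM in all 13 libraries. HDAC2-AS2 shares 69 exon bases with HDAC2 and reached at most 2.18 CPM, and the pseudogenes HDAC1P1 and HDAC1P2 had at most 0.115 CPM.

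The starts of both family members are shown for the letters that the factors named above are known to read, searched on both strands in the 250 bases before each of the 9 RefSeq starts (GRCh38.p14) of the 6 genes. The letters were AATC for the GFI1 family, GATAA for GATA factors and TGTGGT for RUNX factors, none of which overlap one another here. The capitals below mark the matches, and AATC on the other strand reads GATT. The first stretch lies before the second start of GFI1 (minus strand, chr1:92486110-92486179) and outside annotated exons. The other stretches lie before the second start of GFI1B (plus strand, chr9:132978571-132978591 and chr9:132978646-132978673), inside a first exon that GENCODE begins further upstream.
GFI1, RUNX letters: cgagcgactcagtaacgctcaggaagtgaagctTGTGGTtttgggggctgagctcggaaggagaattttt
GFI1B, GATA letters: aaagttttGATAAgcaaatac
GFI1B, GFI1 family letters: acaaatAATCaGATTgaaAATCagggag
The 250 bases before that start of GFI1B held 4 AATC cores, 3 of them in the last stretch, and 7.15% of the 35116 promoters in the table held as many. It held 1 GATAA, which 20.4% of promoters hold. The window before the second start of GFI1 held 1 TGTGGT, found in 10.98% of promoters, and no AATC, which 64.8% of promoters hold at least once. The windows before the other 2 starts of GFI1 held 1 AATC each, and the one before the first start of GFI1B held 2, as many as 35.1% of promoters, with no match to the other letters. The windows of KDM1A and HDAC2 held none of the 3 motifs, and those of RCOR1 and HDAC1 held 1 AATC each. A match of letters is a description and not a site of binding.

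GFI1B was higher in the cultures derived with vitamin C at each of the 5 times. With vitamin C it had 49.9, 45.5, 40.7, 31.2 and 52.3 CPM at 0, 24, 36, 48 and 60 h, against 40.7, 28.0, 28.5, 22.1 and 22.6 CPM without. The ratio was 1.23 at 0 h and 2.31 at 60 h, and across times the conditions overlapped only in that the 36 and 48 h libraries with vitamin C lay no higher than the 0 h library without. In a fit with time as a factor (edgeR quasi-likelihood test, Benjamini-Hochberg adjustment over 16276 genes) the log2 difference with minus without vitamin C was 0.63 ± 0.12 (SE, adjusted p = 0.0076). The rise was called in 10 of the 10 fits that left out 1 library, but these are not 10 separate checks. With time as a factor, the library left alone at its time no longer bears on vitamin C, so the fits came in near-equal pairs. Without either 0 h library the difference was 0.73, and without either 24 h library it was 0.61. GFI1B was the only one of the 6 genes called for vitamin C, where 5.87% of all genes were called, and without a term for time its adjusted p was 0.498. In such mixed cultures more cells that express a gene and more RNA per cell cannot be told apart.

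GFI1, the other family member, did not rise with it. With vitamin C it had 20.2, 13.7, 11.8, 22.1 and 12.0 CPM from 0 to 60 h, against 49.9, 22.3, 14.3, 13.3 and 16.8 CPM without. It was lower with vitamin C at 4 of 5 times and higher at 48 h, and the difference of -0.45 ± 0.22 on the log2 scale did not pass (adjusted p = 0.304). Without the 48 h library that lacked vitamin C, the difference was -0.73 with an adjusted p of 0.0489, and the call with no filter on low counts had an adjusted p of 0.0335.

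**Figure D1:**
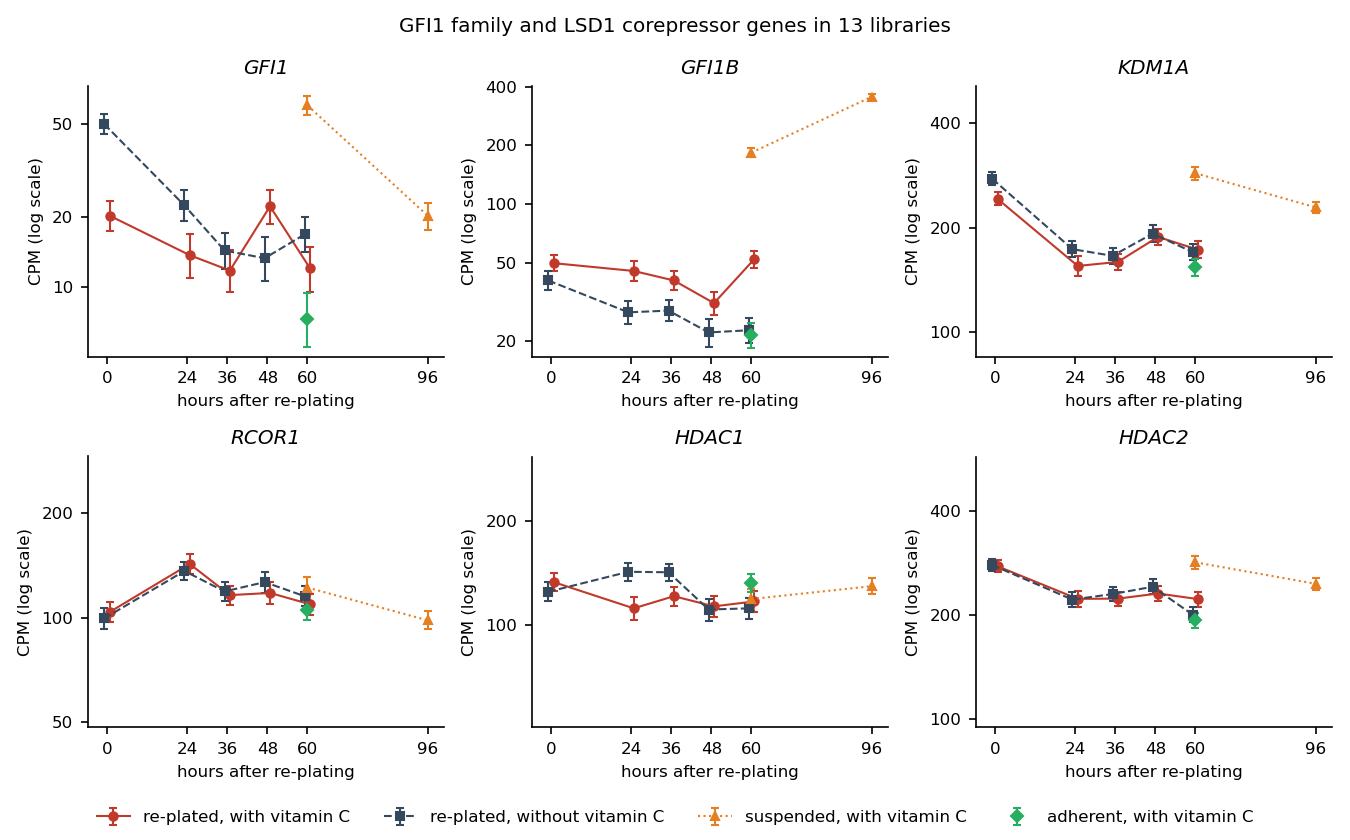
CPM on a log axis against hours after re-plating for the 6 genes, 1 point per library with exact 95% Poisson intervals (counting error only), for re-plated cultures with and without vitamin C, suspended cells and adherent cells. GFI1B with vitamin C lies above GFI1B without at all 5 times, and both family members are highest in suspended cells, GFI1 at 60 h (59.9 CPM) and GFI1B at 96 h (355 CPM).

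The share of GFI1B among the reads of both family genes, which compares libraries and is not a ratio of transcripts, was 71.2, 76.9, 77.6, 58.5 and 81.3% from 0 to 60 h with vitamin C. Without vitamin C it was 44.9, 55.6, 66.6, 62.4 and 57.4%. The exact 95% binomial intervals of the conditions did not overlap at 0, 24, 36 and 60 h, and at 48 h they did (53.1 to 63.7% with vitamin C and 55.8 to 68.7% without). All such intervals hold for counting error alone, because they rest on the reads of single libraries. PCR copies of a molecule were not told apart, so even the counting error may be larger than they show.

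**Figure D2:**
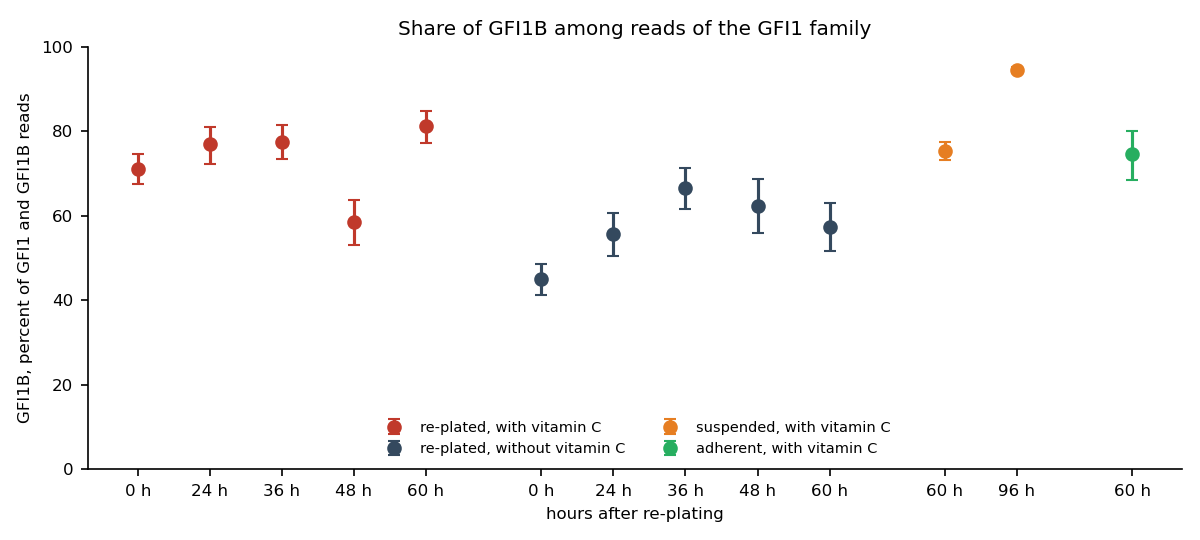
GFI1B reads as a percentage of GFI1 plus GFI1B reads in each of the 13 count libraries, with exact 95% binomial intervals, ordered by culture and hours. The share with vitamin C is above 71% at 4 of 5 times, and it is 94.6% in suspended cells at 96 h.

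None of the 4 corepressor genes was called for vitamin C, where 5.87% of all genes were. KDM1A had 242, 155, 159, 188 and 173 CPM from 0 to 60 h with vitamin C, against 277, 173, 166, 192 and 169.9 CPM without (log2 difference -0.09 ± 0.06, adjusted p = 0.501). RCOR1 had 104, 143, 116, 118 and 109 CPM with vitamin C and 99.4, 136, 119, 127 and 115 CPM without (-0.02 ± 0.07, adjusted p = 0.909). The ranges of both genes overlapped between the conditions. HDAC1 had 133, 112, 121, 113 and 117 CPM with vitamin C and 125, 143, 142, 111 and 112 CPM without (-0.08 ± 0.08, adjusted p = 0.649). HDAC2 had 276, 223, 223, 231 and 222 CPM with vitamin C and 279, 221, 229.8, 241 and 200.3 CPM without (0.00 ± 0.06, adjusted p = 0.993). For both deacetylases the order of the conditions changed from time to time.

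KDM1A, RCOR1 and HDAC2 differed between times, in different directions. At 24 h against 0 h, over both conditions, the log2 level of KDM1A fell by 0.64 ± 0.10 (adjusted p = 0.000469) and that of HDAC2 fell by 0.30 ± 0.10 (adjusted p = 0.0286), whereas RCOR1 rose by 0.48 ± 0.11 (adjusted p = 0.00478). HDAC1 (0.00 ± 0.13, adjusted p = 0.990), GFI1B (-0.32 ± 0.18, adjusted p = 0.215) and GFI1 (-0.89 ± 0.33, adjusted p = 0.0572) were not called. GFI1 without vitamin C was 22.3 CPM at 24 h and 49.9 CPM at 0 h, and its call depended on the settings, with an adjusted p of 0.0487 in DESeq2 and 0.000700 with no filter on low counts. The count of 3 of 6 genes called stands beside 33.3% of all genes. HDAC2 lost its call in 6 of the 10 fits that left out 1 library, with adjusted p up to 0.169, and RCOR1 in the fit without the 24 h library with vitamin C (0.43, adjusted p = 0.0584).

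At 60 h against 24 h only RCOR1 among the 6 was called, and it fell by 0.32 ± 0.11 (adjusted p = 0.0468), where 23.5% of all genes were called. That call was lost with DESeq2 (adjusted p = 0.0686), with no filter (0.0711) and in 8 of the 10 fits without 1 library. By edgeR a straight line over the hours called none of the 6 genes, with vitamin C (1.78% of all genes called) or without (4.28% called). The steepest line was that of GFI1 without vitamin C, -1.73 ± 0.45 per 60 h on the log2 scale (adjusted p = 0.0620), against -0.35 ± 0.49 with vitamin C. The line of GFI1 without vitamin C was called by DESeq2 (adjusted p = 0.0230) and with no filter (0.0301), and was -0.69 without its own 0 h library. The difference in slope, with minus without, was 1.37 ± 0.68 for GFI1 and 0.71 ± 0.42 for GFI1B, both with an adjusted p of 1.0. By edgeR 0% of all genes were called for that difference, 473 had an unadjusted p under 0.05, and DESeq2 called 11.

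**Figure D3:**
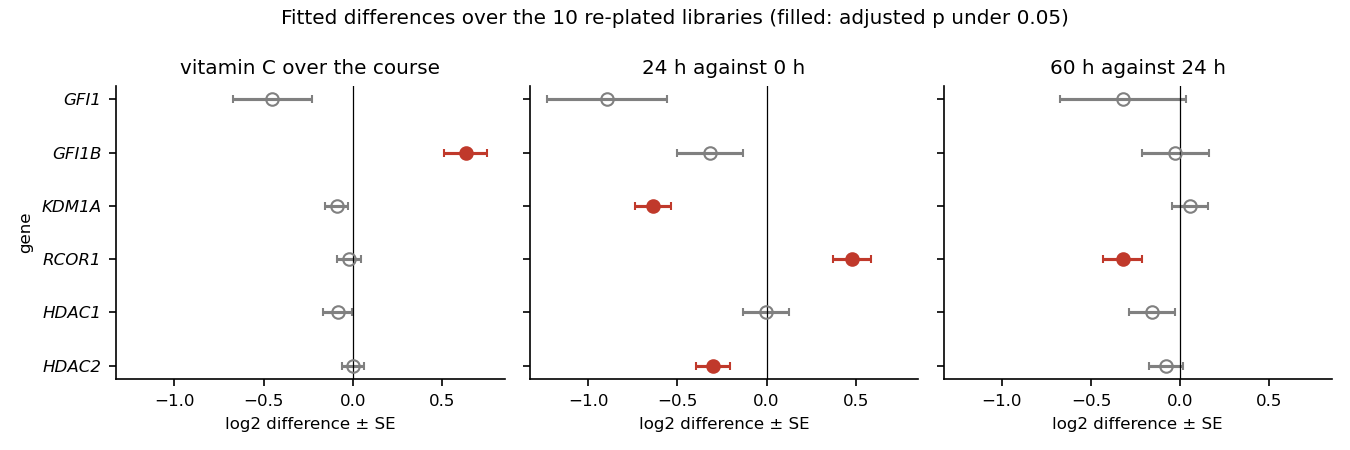
Fitted log2 differences with their standard errors for the 6 genes over the 10 re-plated libraries, with minus without vitamin C, 24 h minus 0 h and 60 h minus 24 h. Filled points passed an adjusted p of 0.05, which GFI1B did for vitamin C, KDM1A, RCOR1 and HDAC2 at 24 h, and RCOR1 at 60 h.

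In the sorted cells the family genes varied widely between libraries. GFI1 was 1.14 and 19.2 TPM in replicates 1 and 2 with vitamin C, against 3.47 and 28.3 TPM without. GFI1B was 17.2 and 146 TPM with vitamin C (mean 81.8 ± 91.3, SD, n = 2), against 46.0 and 66.65 TPM without (56.3 ± 14.6, SD, n = 2). In both conditions replicate 2 was the higher one for both genes, and the conditions overlapped. Within replicate numbers, GFI1 was lower with than without vitamin C in replicates 1 and 2. GFI1B was lower with than without vitamin C in replicate 1 and higher in replicate 2. The difference with minus without vitamin C on the log2(TPM + 1) scale was -0.80 ± 1.31 for GFI1 and -0.12 ± 0.95 for GFI1B. That fit had no term for replicate number, so these SE also hold the difference between replicate numbers.

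The corepressor genes spread less between the replicate numbers. KDM1A was 122 and 168 TPM with vitamin C and 168.5 and 235 TPM without, so that its highest value with vitamin C was just under its lowest without (-0.47 ± 0.29). RCOR1 was 35.5 and 29.7 TPM with vitamin C and 43.5 and 35.6 TPM without, both values with vitamin C lying below both without, one of them by less than 0.1 TPM (-0.27 ± 0.29). HDAC1 was 178 and 149 TPM with vitamin C and 144 and 129 TPM without, both values with vitamin C lying above both without (0.26 ± 0.24). HDAC2 was 232 and 266 TPM with vitamin C and 298 and 294 TPM without, both values with vitamin C lying below (-0.25 ± 0.23). By limma none of the 6 genes passed (adjusted p = 0.9998 each), as 0% of 14421 genes did, of which 313 had an unadjusted p under 0.05. In TPM, the scale that allows genes to be compared, HDAC2 was the highest of the 6 in each of the 4 libraries and GFI1 the lowest. GFI1B exceeded GFI1 by 15.1 and 7.61 times with vitamin C, and by 13.3 and 2.36 times without. Counts of the re-plated libraries, divided by the length of all annotated exons of each gene, gave lower ratios of GFI1B to GFI1, 1.34 with vitamin C and 0.441 without at 0 h, and 0.441 to 2.35 over the 10 libraries. The lengths behind the TPM are not given in the sources used here, and the sorted and re-plated libraries are different samples. Scale and sample therefore cannot be told apart in the order of both genes.

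The titles give the conditions used above, but the descriptions give 1 condition to both libraries of a replicate number, so that grouping by description compares replicate 2 with replicate 1. So grouped, GFI1 differed by 2.98 (adjusted p = 0.0361) and GFI1B by 1.77 (adjusted p = 0.113), and 156 genes were called against 0 by title. Which label is right was not tested.

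**Figure D4:**
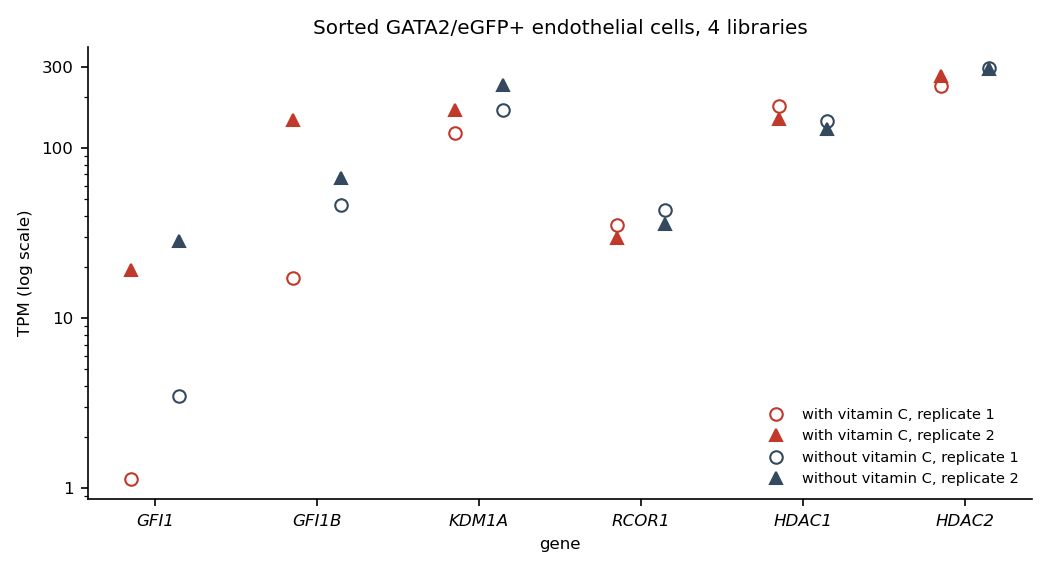
TPM on a log axis for the 6 genes in the 4 sorted libraries, with vitamin C left of without, open circles for replicate 1 and filled triangles for replicate 2. GFI1 spans 1.14 to 28.3 TPM and GFI1B 17.2 to 146 TPM, while RCOR1 stays between 29.7 and 43.5 TPM.

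Both family genes were far higher in the suspended than in the adherent cells of the 60 h culture. GFI1 had 59.9 CPM in suspended cells (417 reads) and 7.27 CPM in adherent cells (59 reads), a log2 ratio of 2.96 (95% counting interval 2.65 to 3.46). GFI1B had 184 CPM in suspended cells and 21.3 CPM in adherent cells, a log2 ratio of 3.08 (2.88 to 3.35). The unseparated culture with vitamin C at 60 h lay between both fractions, at 12.0 CPM for GFI1 and 52.3 CPM for GFI1B. With 1 library per fraction there is no replicate check and no test.

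KDM1A had 287 CPM in suspended cells and 153 CPM in adherent cells (log2 ratio 0.90), and HDAC2 had 284 and 193 CPM (0.56). RCOR1 had 122 CPM in suspended cells and 105 CPM in adherent cells (0.21), and HDAC1 had 119 and 132 CPM (-0.15). The median over all 12705 genes compared was 0.14, and TMM scaling lowered it to 0.03, which left KDM1A at 0.80 and HDAC2 at 0.45. Of the 6 genes 2 were past 2-fold, counting a gene only if its higher library reached 5 CPM, where 26.9% of all genes were. KDM1A, at 1.87-fold, stayed just inside that limit.

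From 60 to 96 h the 2 suspended libraries differed in opposite directions for the family genes. GFI1 had 20.2 CPM at 96 h and 59.9 CPM at 60 h (log2 ratio -1.55, 95% counting interval -1.81 to -1.33), and GFI1B had 355 CPM at 96 h and 184 CPM at 60 h (0.95, 0.86 to 1.04). GFI1B was 75.4% of the reads of both family genes in suspended cells at 60 h, 94.6% at 96 h and 74.6% in adherent cells. GFI1 alone of the 6 was past 2-fold, as were 16.1% of 12405 genes. GFI1B was at 1.93-fold, and under TMM scaling, which brought the median of all genes to -0.03 from -0.19, it passed 2-fold at 1.11.

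The 4 corepressor genes stayed within 2-fold between the suspended libraries. KDM1A had 229 CPM at 96 h and 287 CPM at 60 h, RCOR1 98.1 and 122 CPM, HDAC1 129.8 and 119 CPM, and HDAC2 246 and 284 CPM. Their log2 ratios lay between -0.33 for KDM1A and 0.12 for HDAC1.

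Marker genes of several cell types differed with vitamin C, where GFI1B was called and GFI1 was not. The counts of markers below stand beside 5.87% of all genes called for vitamin C. Of 10 measured blood progenitor markers, 8 were higher and 0 lower with vitamin C, among them CD34 (1.01 ± 0.08), KIT (0.76 ± 0.13), MYB (0.51 ± 0.09) and the leukocyte sialoglycoprotein SPN (2.44 ± 0.29). The 11 listed markers summed to 1361 to 1791 CPM with vitamin C and to 598 to 1018 CPM without. At 0 h the sums were already 1637 CPM with vitamin C and 682 CPM without. PTPRC, which encodes CD45, was the one at 0 in 8 of the 13 libraries. Of 16 endothelial markers, 5 were higher and 1 lower with vitamin C, summing to 10689 to 14930 CPM with vitamin C and 9530 to 15041 CPM without. Of 6 measured mesenchymal markers, 0 were higher and 4 lower, summing to 400 to 889 CPM with vitamin C and 707 to 1439 CPM without. Erythroid (0 of 11 called), megakaryocyte (2 of 7 higher), myeloid (1 of 4 higher) and pluripotency markers (0 of 2) made up the rest. The part of these cell types in the levels of GFI1B was not tested.

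The suspended cells differed more. All 16 endothelial markers were more than 2-fold lower in suspended than in adherent cells, where 26.9% of all genes were past 2-fold either way. Their sums were 3052 CPM in suspended and 15486 CPM in adherent cells. The sum was 1151 CPM in suspended cells at 96 h, where ROBO4 was at 0. Blood progenitor markers summed to 2267 CPM in suspended cells at 60 h and 3641 CPM at 96 h, against 1285 CPM in adherent cells. That adherent sum lay above the 598 to 1018 CPM of the re-plated cultures without vitamin C. Of 10 measured, 9 were more than 2-fold higher and 1 lower in suspended than in adherent cells. Erythroid markers summed to 1528 CPM in suspended cells at 60 h and 12675 CPM at 96 h, against 145 CPM in adherent cells, with none of 13 at 0 in either suspended library. Megakaryocyte markers summed to 494 CPM in suspended cells at 60 h and 3274 CPM at 96 h, against 34.2 CPM in adherent cells, with GP6, the platelet collagen receptor, at 0 in all 13 libraries. Myeloid markers summed to 127 CPM in suspended cells at 60 h and 337 CPM at 96 h, against 23.9 CPM in adherent cells. Their part in the levels of GFI1 and GFI1B was not tested.

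Several transcription factors that act upstream of or beside the family were also higher with vitamin C and in suspended cells. For vitamin C, where 5.87% of all genes were called, 3 of 11 were higher and 0 lower, namely GATA1, the erythroid and megakaryocytic GATA factor (2.10 ± 0.43, adjusted p = 0.0116), LMO2, a bridging protein of the same complexes (0.75 ± 0.09, adjusted p = 0.000420), and TAL1 (0.51 ± 0.09, adjusted p = 0.00393). GATA1 had 0.230, 2.25, 5.45, 14.7 and 26.5 CPM from 0 to 60 h with vitamin C, against 0.905, 0.261, 0.569, 3.09 and 5.82 CPM without. It was lower with vitamin C at 0 h and higher from 24 h on. The order at 0 h rests on few reads, since 3 reads were 0.344 CPM at 0 h with vitamin C. At 24 h without vitamin C 3 reads were 0.392 CPM. RUNX1 was not called (0.33 ± 0.10, adjusted p = 0.0783). In suspended against adherent cells 7 of the 11 were more than 2-fold higher and 1 lower, where 26.9% of all genes were past 2-fold. GATA1 had 136 CPM in suspended and 3.45 CPM in adherent cells, RUNX1 502 and 111 CPM, and GATA2 965 and 172 CPM, while ERG, an endothelial and stem cell factor, had 37.7 and 257 CPM. At 96 h against 60 h in suspended cells, 1 of the 11 was more than 2-fold higher and 2 lower, where 16.1% of all genes were past 2-fold. GATA1 was higher (291 and 136 CPM), and GATA2 (309 and 965 CPM) and ERG (8.77 and 37.7 CPM) were lower. With 1 library at each time there was no test.

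Genes reported as targets of GFI1 or GFI1B showed both directions. For vitamin C, 5 of 18 measured were higher and 2 lower, where 5.87% of all genes were called. SPI1, the myeloid factor PU.1, had 6.08, 6.11, 11.02, 14.8 and 33.7 CPM with vitamin C, against 1.03, 0.784, 0.341, 1.70 and 3.75 CPM without (3.25 ± 0.27, adjusted p = 3.75e-05). HOXA9, a homeobox gene of blood progenitors, had 0.344 to 0.606 CPM with vitamin C and 4.57 to 8.49 CPM without (-3.74 ± 0.31), and the cell cycle inhibitor CDKN1A had 61.4 to 200.1 CPM and 149 to 396 CPM (-1.06 ± 0.11). Both were lower with vitamin C at all 5 times, and the 0.344 CPM of HOXA9 was 3 reads. At 24 h against 0 h 1 was higher and 5 lower, a share no larger than the 33.3% of all genes called. At 60 h against 24 h, where 23.5% of all genes were called, 11 were higher and 1 lower, led by the TGF-beta coreceptor gene TGFBR3 (1.67 ± 0.12). In suspended against adherent cells 6 of 17 were more than 2-fold higher and 5 lower, where 26.9% of all genes were past 2-fold. TGFBR3 had 26.6 CPM in suspended and 312 CPM in adherent cells, and ID1, a helix-loop-helix inhibitor, had a log2 ratio of -2.81. SPI1 had 144 CPM in suspended and 12.3 CPM in adherent cells, and MYC 225 and 26.1 CPM. MYC also rose along the hours with vitamin C (1.23 ± 0.26 per 60 h, adjusted p = 0.0454) and fell without it (-1.05 ± 0.24, adjusted p = 0.0401), but its difference in slope did not pass (2.28 ± 0.35, adjusted p = 1.0).

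Among 11 other subunits of the LSD1-CoREST complex and their paralogs, 0 were called for vitamin C, where 5.87% of all genes were. At 24 h against 0 h, 0 were higher and 6 lower, with a median log2 difference of -0.42 against -0.02 over all genes, of which 33.3% were called. RCOR2, a CoREST paralog, had 11.6 CPM at 24 h and 35.0 CPM at 0 h in the cultures with vitamin C, and 15.5 and 41.1 CPM in those without (-1.46 ± 0.22, adjusted p = 0.000349). The HMG box subunit HMG20B (-0.76 ± 0.13) and PHF21A, the reader of unmethylated histone H3 lysine 4 (-0.77 ± 0.14), fell as well, and none of the 11 rose as RCOR1 did. At 60 h against 24 h 2 rose (PHF21A and ZMYM3) and 0 fell, where 23.5% of all genes were called. In suspended against adherent cells GSE1 (388 and 107 CPM) and KDM1B, the paralog of KDM1A (41.4 and 15.9 CPM), were more than 2-fold higher. Of all genes 26.9% were past 2-fold there. At 96 h against 60 h in suspended cells KDM1B was lower, at 15.4 and 41.4 CPM, where 16.1% of all genes were past 2-fold.

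**Figure D5:**
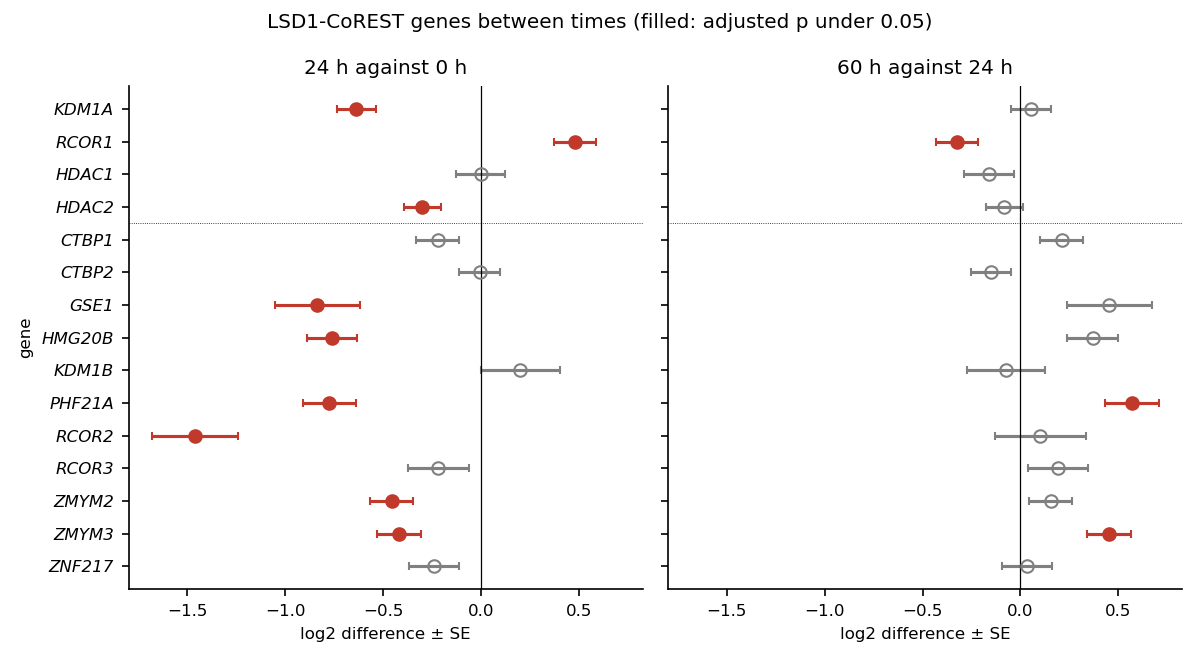
Log2 differences with standard errors between times for the 4 corepressor genes (above the dotted line) and 11 other LSD1-CoREST genes and paralogs, over the 10 re-plated libraries. At 24 h the filled points, which passed an adjusted p of 0.05, lie below 0 for KDM1A, HDAC2 and 6 others and above 0 for RCOR1.

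HDAC1 and HDAC2 also belong to other complexes. Of 11 NuRD genes, 0 were called for vitamin C, and at 24 h against 0 h 2 were higher and 3 lower, where 33.3% of all genes were called. MTA3 (-1.29 ± 0.15), MTA1 (-0.52 ± 0.12) and the remodeller gene CHD4 (-0.27 ± 0.08) fell, and MBD2, which binds methylated DNA (1.19 ± 0.22), and MTA2 (0.37 ± 0.11) rose. MTA3 rose again at 60 h against 24 h (0.63 ± 0.15), with the remodeller gene CHD3 (0.49 ± 0.11). Of 13 SIN3 genes the 1 called at 24 h was SAP30 (0.87 ± 0.21), and 0 were called for vitamin C or past 2-fold in suspended against adherent cells. Of 7 other class I deacetylase and NCoR genes, NCOR1 rose (0.50 ± 0.13) and TBL1XR1 fell (-0.59 ± 0.17) at 24 h. TBL1X was more than 2-fold higher in suspended cells (79.8 CPM) than in adherent cells (34.0 CPM). Over all genes 5.87% were called for vitamin C, 33.3% at 24 h against 0 h and 23.5% at 60 h against 24 h. In suspended against adherent cells 26.9% were past 2-fold.

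Of 7 other genes whose products carry a SNAG domain, 3 passed the filter on low counts and 0 were called for vitamin C. Over all genes 5.87% were called for vitamin C and 23.5% at 60 h against 24 h. SNAI1, a repressor of epithelial genes, fell at 60 h against 24 h (-1.10 ± 0.23), and SNAI3 rose (1.96 ± 0.55). SNAI2 had 9.63 CPM in suspended and 37.2 CPM in adherent cells at 60 h, and 0.271 CPM (3 reads) in suspended cells at 96 h.

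The pattern of each gene over the libraries was set against the other members and against 11391 genes with a mean of at least 5 CPM, by Pearson's r of log2(CPM + 1). These values are descriptions, since the libraries share cultures, times and depth. KDM1A and HDAC2 had r = 0.91 over 13 libraries and 0.89 over the 10 re-plated ones, and GFI1 and KDM1A 0.87 and 0.80. GFI1 and GFI1B had r = 0.46 over 13 libraries and 0.03 over the 10. KDM1A and RCOR1 ran opposite, at -0.42 and -0.71.

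The genes most like GFI1B over the 13 libraries were PRKCD (r = 0.99), MPP1 (0.98), ABCC4 (0.98), RAP1GAP2 (0.97) and BMP2K (0.97). PRKCD, which encodes protein kinase C delta, had 112 CPM in suspended cells at 96 h, 66.1 CPM in suspended cells at 60 h and 22.9 CPM in adherent cells. Over the 10 re-plated libraries r was 0.90 for PRKCD, 0.79 for MPP1, 0.83 for ABCC4, 0.89 for RAP1GAP2 and 0.84 for BMP2K. Those most like GFI1 were SYNC (r = 0.91), PAXIP1 (0.90), CNOT1 (0.89), GRAMD4 (0.87) and ZNF646 (0.87). SYNC, which encodes an intermediate filament protein, had 23.7 CPM in suspended cells at 96 h, 33.3 CPM at 60 h and 17.0 CPM in adherent cells. Over the 10 libraries r was 0.89 for SYNC, 0.78 for PAXIP1, 0.77 for CNOT1, 0.84 for GRAMD4 and 0.81 for ZNF646.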

How the data were processed

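Expression was measured by RNA sequencing in 17 libraries of H1-derived cells, grouped by their titles. The build GRCh38 (hg38) and the tools HTSeq 0.6.0, DESeq 1.18.1, HISAT2 2.0.4 and SAMtools 1.3.1 are listed, with no roles, per the submitters' processing notes. The authors deposited 13 tables of raw read counts per gene and, for the sorted cells, 4 tables of values read as TPM, whose making is not given in the sources used here. The planned count test could not be used on the TPM tables, so they were tested with limma 3.58.1 (trend) on log2(TPM + 1), which understates changes of low genes. Genes below 1 TPM in all or all but 1 of the libraries were left out.

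Counts of the 10 re-plated libraries were tested with edgeR 4.0.16 (quasi-likelihood, TMM, filterByExpr), with time as a factor plus vitamin C, or as 1 line per condition over 60 h. The number of same-numbered pairs in the sorted cells is 2. The main fit left the replicate number out, and a fit with it was an alternative. All p-values are two-sided, Benjamini-Hochberg adjusted over all genes tested at a threshold of 0.05, and their SE comes from the F statistic. Printed CPM are of the library total. Single CPM carry exact Poisson intervals at 95%. Ratios of single libraries had 0.5 CPM added. Their 95% intervals are exact binomial intervals on the reads of both libraries, rescaled by the library totals, with no CPM added. Fits were also run on simulated libraries drawn independently, without the shared deviations of same-numbered sorted libraries, and their recovery is not reported here. Symbols and positions came from the reference gene table and GENCODE 29. Members and lists were chosen with earlier results of these data known, so neither lists nor scores were tested, and 1 gene of a pathway list is not reported here. Named were the 6 members, from each of 7 pathway and 7 marker lists up to 4 called genes with the smallest p (or the largest ratios past 2-fold), and the 5 genes most like GFI1 and GFI1B, passing over clone names and the Y chromosome. Other genes of a list that are named (KIT, MYB, CHD4, ID1, and RUNX1 for vitamin C) were chosen after their values were seen. Alternatives were other scalings, DESeq2 1.42.0, no filter, other pseudocounts, leaving out each library or the 0 h pair, time ranks, no term for time, groups by description and a replicate block.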

Additional observations from a re-analysis of the deposited data

How the results depend on the processing

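The rise of GFI1B with vitamin C in the re-plated cultures kept its direction under every alternative run. It lost its call only in the fit with no term for time (0.62, adjusted p = 0.498). Without 1 library its values were 0.49 to 0.73, in near-equal pairs, 1 pair per time. GFI1 was less settled. It was called at 24 h against 0 h by DESeq2 (-0.89) and with no filter (-0.86), along the hours without vitamin C by DESeq2 (-1.72) and with no filter (-1.70), and for vitamin C with no filter (-0.45). Without 1 library GFI1 ranged from -0.73 to -0.19 for vitamin C (called in 1 of 10 fits), from -1.35 to -0.23 at 24 h (called in 3), from -2.52 to -0.69 along the hours without vitamin C (called in 1) and from -0.76 to 0.23 with vitamin C. GFI1B ranged from -0.42 to 0.27 at 60 h against 24 h and from -0.75 to 0.11 along the hours with vitamin C. In the sorted cells GFI1 ranged from -2.42 to 0.82 and GFI1B from -1.63 to 1.39 without 1 library, with 0 to 1 genes called, and grouping by description turned GFI1 (2.98), GFI1B (1.77), KDM1A (0.46), HDAC1 (-0.20) and HDAC2 (0.088), with 156 genes called.

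Without the 0 h pair the lines with vitamin C turned for GFI1 (0.23), GFI1B (0.12), KDM1A (0.30) and RCOR1 (-0.63), and those without vitamin C for KDM1A (0.057) and RCOR1 (-0.33), none of them called. With time ranks RCOR1 was at -0.079 with vitamin C. Values close to 0 changed sign elsewhere. HDAC2 for vitamin C was at -0.0027 with DESeq2 size factors, -0.0029 by DESeq2 and -0.0082 with no term for time, and HDAC1 at 24 h at 0.0056 with DESeq2 size factors, 0.0058 by DESeq2 and 0.033 with no filter. Without 1 library HDAC2 for vitamin C ranged from -0.034 to 0.019, HDAC1 from -0.16 to 0.16 at 24 h and from -0.32 to 0.0085 at 60 h, and KDM1A from -0.0070 to 0.11 at 60 h. The lines with vitamin C ranged from -0.51 to 0.30 for KDM1A and from -0.63 to 0.20 for RCOR1, and those without from -0.74 to 0.055 and from -0.33 to 0.40. The differences in slope ranged from -0.45 to 0.91 for KDM1A, from -0.82 to 0.33 for RCOR1, from -0.079 to 0.54 for HDAC1 and from -0.091 to 0.32 for HDAC2. Beside these, RCOR1 lost its call at 60 h against 24 h by DESeq2 and with no filter, and HDAC2 its call at 24 h with no filter (-0.26).

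Counts of called genes were 1591 for vitamin C with no filter and 28 with no term for time, against 955. Along the hours with vitamin C they were 712 by DESeq2, 438 with no filter, 1814 without the 0 h pair and 92 with time ranks, against 289, and without vitamin C 1284 by DESeq2 and 2545 without the 0 h pair, against 697. The difference in slope called 11 genes by DESeq2 and 1 without the 0 h pair, against 0. Without 1 library the counts were 505 to 1209 for vitamin C, 2961 to 5492 at 24 h, 1734 to 4541 at 60 h, 9 to 624 along the hours with vitamin C and 141 to 1025 without. The cause of these changes was not tested.

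With 5 CPM added the log2 ratios of suspended to adherent cells were 2.40 for GFI1 and 2.84 for GFI1B, and 1224 genes were past 2-fold at 96 h against 60 h, against 1995. TMM scaling put KDM1A and HDAC2 at 0.80 and 0.45 in suspended against adherent cells, and at 96 h against 60 h GFI1B at 1.11, KDM1A at -0.17, RCOR1 at -0.16, HDAC1 at 0.28 and HDAC2 at -0.05. The replicate block in the sorted cells called 0 genes, as did the fit without it, with 1237 against 313 genes at an unadjusted p under 0.05, and left GFI1 at -0.80 and GFI1B at -0.12. Same-numbered libraries deviated together (r = 0.56 over genes). In the limma fit with vitamin C and replicate number, 239 of 14421 genes were called for replicate 2 minus 1, 61 higher and 178 lower. GFI1 was among them (2.98 ± 0.32, adjusted p = 0.0296), and GFI1B was not (1.77 ± 0.53, adjusted p = 0.119). With 2 pairs the same-numbered libraries share only a number. Depth limits GFI1 most, with 59 to 417 reads per library.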
